A study of Mus musculus with 22 samples.

Results

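A window of 120 kb on mouse chromosome 9, from 91220000 to 91340000 in build mm9, was taken to hold the neighbouring genes Zic1 and Zic4, and every peak that touched it in 10 deposited peak lists was collected. Of 110069 listed peaks, 22 lay in the window, 5 of H3K27me3 and 17 of H3K4me3. The window was chosen by the peaks already seen in it, their positions and lengths in the 10 lists, so these values are given as a description and no test was made on them. The lists name no genes, and the gene table used here was of another build, so which peak lies at which gene's start was not determined.

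The series mapped both histone marks in purified cells of the neocortex of C57BL/6JOlaHsd embryos. Neuroepithelial cells (NEC), the founder progenitors, were taken at embryonic day 9.5 (E9.5). Radial glia that divide at the ventricle were taken at E14.5 in a proliferative (aRG-P) and a neurogenic (aRG-N) population, as were radial glia of basal position (bRG) and the neurons (N). Each of the 10 combinations of cell type and mark had 2 samples, and 1 peak list called on combined samples was used for each, so no value has a spread between replicates. The labels name the 2 aRG-N H3K27me3 samples as technical, and without gene symbols the sorted cell types could not be checked against their markers.

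Zic1 and Zic4 encode zinc finger transcription factors of the ZIC family. The genes lie side by side and are transcribed away from each other, and they are known for roles in dorsal neural tube and cerebellar development and for expression at the midline of the forebrain. H3K27me3 is laid down by Polycomb repressive complex PRC2 and can cover a developmental gene and its surroundings as one long domain. H3K4me3 marks active and poised promoters. Peaks of both marks over one place are often called bivalent, but in a population of cells the overlapping peaks can stem from different cells or chromosome copies, and a mark in part of the cells cannot be told apart from a weaker mark in all of them.

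In the RefSeq gene order of GRCm38.p6, Zic1 (gene ID 22771) is followed directly by Zic4 (gene ID 22774), and the next genes on either side, Gm40545 and Gm29478, are long non-coding RNAs. The 250 bases before each start in that table are shown because the starts of CpG-rich developmental genes are the usual sites where the marks meet. Capitals mark each CG, the motif searched, which reads the same on both strands. The positions are chr9:91365769-91366018 on the minus strand for Zic1 and chr9:91368722-91368971 on the plus strand for Zic4, in GRCm38.p6, and cannot be set against the mm9 positions of the peaks.
Zic1: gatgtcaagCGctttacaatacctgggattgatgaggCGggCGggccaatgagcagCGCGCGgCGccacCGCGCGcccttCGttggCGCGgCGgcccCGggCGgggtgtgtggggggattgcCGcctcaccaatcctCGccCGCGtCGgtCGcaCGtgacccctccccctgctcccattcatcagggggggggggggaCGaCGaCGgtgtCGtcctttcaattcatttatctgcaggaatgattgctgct
Zic4: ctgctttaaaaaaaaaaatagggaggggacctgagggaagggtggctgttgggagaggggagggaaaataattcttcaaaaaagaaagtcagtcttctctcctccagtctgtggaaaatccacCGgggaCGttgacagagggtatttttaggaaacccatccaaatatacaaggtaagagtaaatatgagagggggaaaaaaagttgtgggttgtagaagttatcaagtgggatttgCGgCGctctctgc
The Zic1 sequence held 27 CG and had a GC content of 66.0%. Of 32851 promoters of the same length, 8.56% held at least as many. The Zic4 sequence held 4 CG at a GC content of 44.4%, and 62.2% of promoters held at least as many. The median promoter held 6 CG, so the Zic1 start was CpG-rich and the Zic4 start in this table was not. CG was present at least once in 92.1% of all promoters, and neither count says anything about what binds there.

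The H3K27me3 domain was one unbroken peak in every cell type. It ran from 91242194 to 91306896 in NEC, a length of 64.7 kb. In aRG-P it ran from 91242647 to 91317476 (74.8 kb) and in aRG-N from 91242552 to 91317701 (75.2 kb). In bRG it ran from 91251835 to 91317166 (65.3 kb), and in N from 91243396 to 91318691 (75.3 kb). All 5 peaks shared 55.1 kb, from 91251835 to 91306896, which was 72.0% of the 76.5 kb that at least 1 of them covered. An H3K27me3 peak in all 5 lists was found for 21.8% of the 10103 regions that resulted when H3K27me3 peaks of all lists were joined across gaps of up to 3000 bp.

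**Figure D1:**
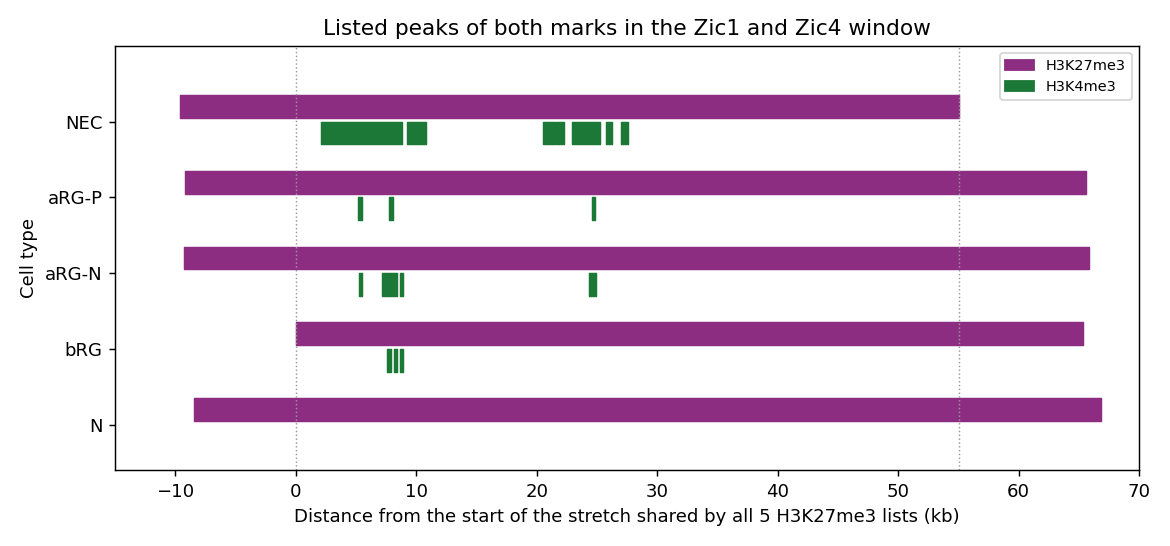
Listed peaks of H3K27me3 (purple) and H3K4me3 (green) in the 5 cell types, drawn to scale as distance in kb from the start of the stretch that all 5 H3K27me3 lists share, with dotted lines at both ends of that stretch. The purple bars are 64.7 to 75.3 kb long, the NEC bar ends early on the right and the bRG bar starts late on the left, and the green bars number 7 in NEC, 3 or 4 in the radial glia and none in N.

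The edges of the domain differed between lists at 2 places. On the right, the 4 E14.5 peaks ended within 1525 bp of each other, and they reached 10.3 kb (bRG) to 11.8 kb (N) beyond the NEC peak. On the left, NEC, aRG-P, aRG-N and N began within 1202 bp of each other, and bRG began 9.64 kb inside the NEC start. The authors' peak numbers skip 2 calls to the right of the NEC domain and 2 to the left of the bRG domain before the next listed peak. Those calls are not in the lists used here and their places are unknown, so whether a separate H3K27me3 call continued the domain there was not determined. Processing differed too: the names of the peaks record that some reads were excluded for aRG-P and that reads had been lengthened by 200 bp for N.

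Long NEC domains elsewhere were matched, at the median, by slightly longer H3K27me3 in aRG-N and N and by shorter H3K27me3 in aRG-P and bRG. The aRG-N peak was 1.16 times as long as the NEC peak here, against a median of 1.04 over 359 NEC domains of at least 10 kb that had an aRG-N peak. Of these domains, 238 had a lower ratio. For aRG-P the ratio was 1.16 against a median of 0.928 over 346 domains, and 289 of them had a lower ratio. For bRG it was 1.01 against 0.884 over 300 domains, with 221 lower, and for N 1.16 against 1.05 over 330, with 231 lower.

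The domain was among the longest H3K27me3 peaks in each list. By length it ranked 6 of 9460 peaks for NEC, 5 of 5075 in aRG-P, 7 of 6830 in aRG-N, 5 of 3476 in bRG and 7 of 5734 in N. When peaks of a list were joined across up to 3000 bp it ranked 16 in NEC and 11 in aRG-N. It was 34.5 times (bRG) to 46.2 times (aRG-P) as long as the median peak of its list. H3K27me3 was also summed over tiles of 120 kb that held any of it. The window ranked 30 of 4553 tiles for NEC, 6 of 3262 in aRG-P, 13 of 3923 in aRG-N, 6 of 2487 in bRG and 10 of 3691 in N. These ranks favour the window, which was placed to hold its whole domain, whereas the fixed borders of the tiles can cut other domains. The authors' first score column, whose meaning is not settled, was higher for the domain than for 91.23% (bRG) to 97.3% (N) of peaks of the same list.

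H3K4me3 inside the domain was extensive in NEC, sparse in the 3 types of radial glia and unlisted in N. Peaks of this mark covered 13.3 kb in NEC. At E14.5 they covered 0.899 kb in aRG-P, 2.29 kb in aRG-N, 0.793 kb in bRG and 0 kb in N. They lay in a left group between 91253922 and 91262635 and a right group between 91272393 and 91279417, separated by 9.76 kb with no H3K4me3 peak in any list. The rest of the domain carried no H3K4me3 peak in any list, including the 27.5 kb (NEC) to 39.3 kb (N) at its right end.

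**Figure D2:**
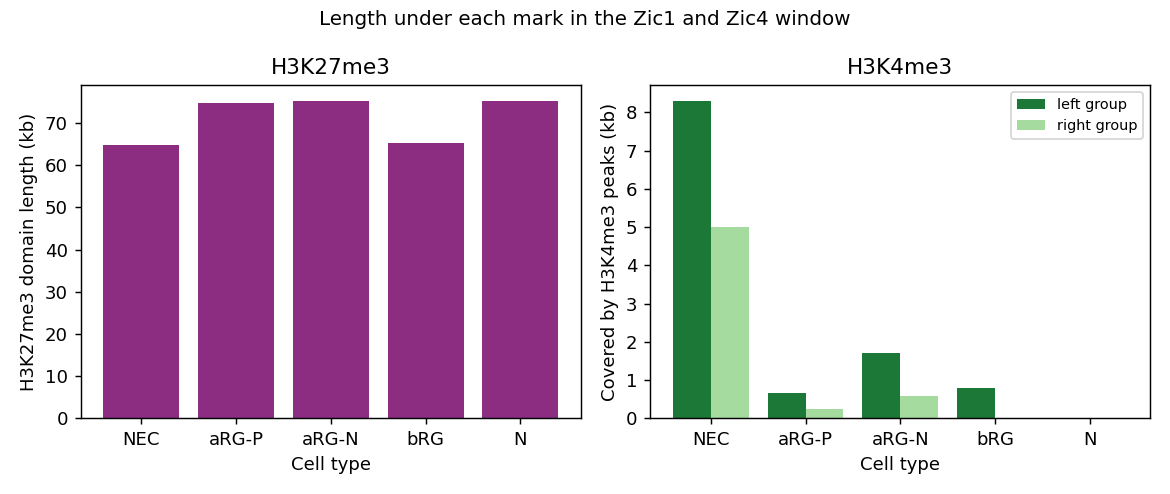
Length of the H3K27me3 domain (left panel, kb) and length covered by H3K4me3 peaks in the left and right groups (right panel, kb) for each cell type, 1 combined list per bar and no error bars. The H3K27me3 bars lie between 64.7 and 75.3 kb, whereas H3K4me3 covers 8.30 and 5.01 kb in NEC, at most 1.71 kb in either group at E14.5, and nothing in N.

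In NEC the left group consisted of 2 peaks. The first, from 91253922 to 91260651, was 6.73 kb wide with a fold enrichment over background of 29.6, as the authors' peak caller gave it. Its width ranked 19 of 17867 peaks in the list, and 75.5% of the list had a lower fold enrichment. The second, from 91261063 to 91262635, was enriched 10.2-fold. The list's median was 18.7, so the broad peak lay above it and the second one below.

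The NEC right group held 5 peaks with fold enrichments of 10.3, 6.90, 12.6, 6.90 and 4.93 from left to right. The strongest of them ran from 91274789 to 91277097, 2.31 kb, and was wider than 92.9% of the list. All 5 lay below the list's median fold enrichment.

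**Figure D3:**
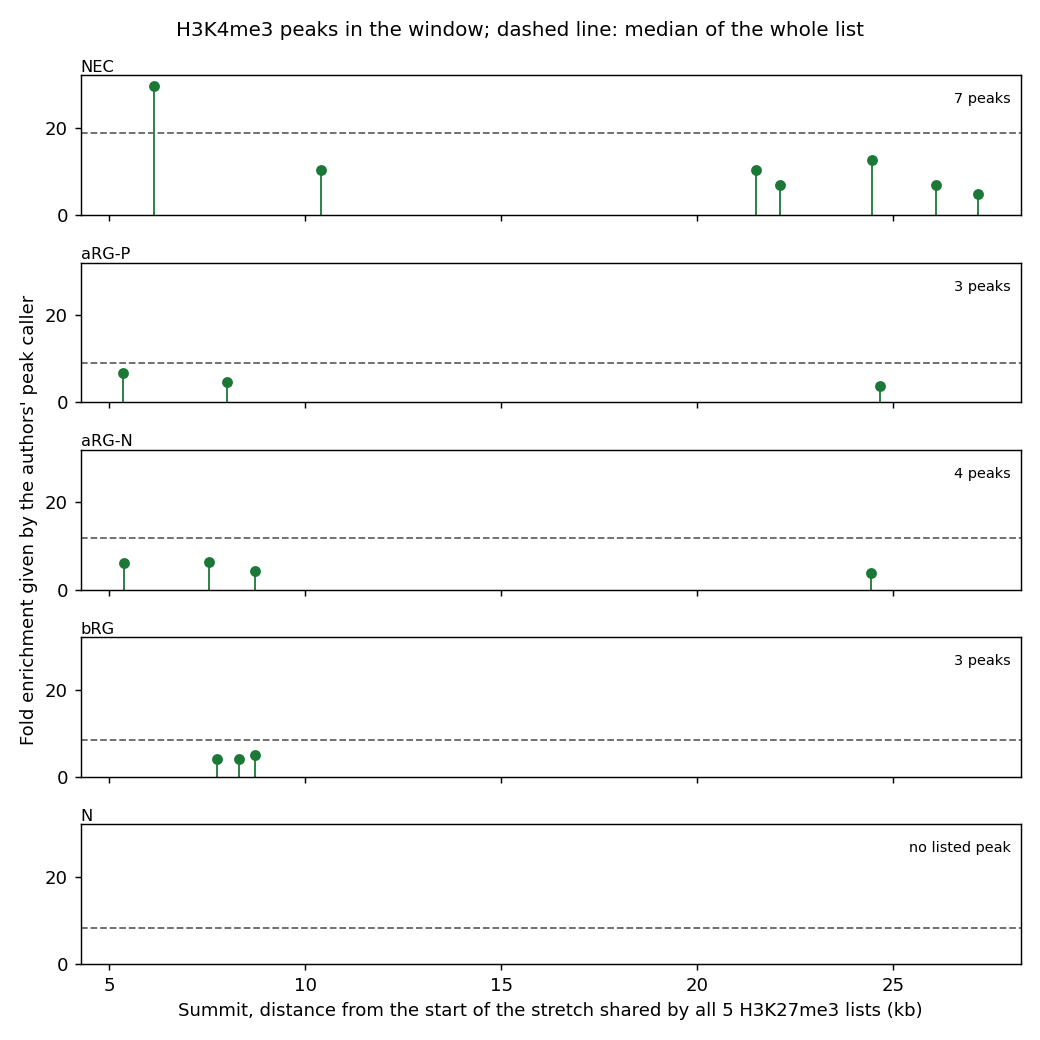
Fold enrichment of each H3K4me3 peak in the window, as the authors' peak caller gave it, at its summit's distance in kb from the start of the stretch shared by all 5 H3K27me3 lists, with 1 panel per cell type. The dashed lines are the medians of the whole lists, and the first NEC peak (29.6) is the only one of the 17 above its list's median, while N has none. Fold enrichments are comparable within a panel only.

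The apical radial glia had short H3K4me3 peaks in both groups. In aRG-P the 3 peaks were 359, 289 and 251 bp wide with fold enrichments of 6.85, 4.71 and 3.86, against a list median of 8.997. In aRG-N the 4 peaks were 287, 1202, 218 and 585 bp wide with fold enrichments of 6.03, 6.34, 4.33 and 3.92, against a median of 11.8. In the left group the closest aRG-P and aRG-N summits, at 91257189 and 91257204, were 15 bp apart. The other aRG-P summit there, at 91259844, was 461 bp from the nearest aRG-N summit. In the right group the aRG-N summit at 91276269 was 24 bp from the summit of the strongest NEC peak there, and the aRG-P summit was 195 bp from it. The highest point of the broad NEC peak, at 91257978, was 774 bp from the nearest aRG-N summit.

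Basal radial glia had H3K4me3 in the left group only. Its 3 peaks, from 91259411 to 91259718, 91259968 to 91260240 and 91260495 to 91260706, had fold enrichments of 4.16, 4.16 and 4.93, against a list median of 8.53. The last was at the minimum width of the list, 212 bp, and its summit was 15 bp from that of an aRG-N peak. The first and second bRG summits were 203 and 385 bp from the nearest aRG-N summits. A stretch of 131 bp, from 91259588 to 91259718, was the place where NEC, aRG-P, aRG-N and bRG all had an H3K4me3 peak. Of the bases under H3K4me3 in bRG, 93.1% were also under it in NEC, and in aRG-N and aRG-P 98.3% and 100% were. The E14.5 peaks thus lay within or at the edge of the NEC peaks, and 10958 bases were marked in a single list. With the −log10 q held to 5 or more, aRG-N retained 3 of its 4 peaks, aRG-P 1 of 3 and bRG 1 of 3. At 20 none remained in aRG-P, aRG-N or bRG, and 2 did in NEC. The share of each whole list that passes these cuts was not determined, so the counts are not compared between cell types.

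Neurons had no listed H3K4me3 peak in the window. The nearest listed N peaks were 1054 kb to its left and 805 kb to its right, and the authors numbered them 16532 and 16533. The numbers ascend along the chromosome, so no N call between these peaks, over 1980 kb, is missing from the list. The nearest listed peaks of the other 4 cell types outside the window lay at the same 2 places, 1054 kb and 805 kb away to the nearest kb. The nearest listed H3K27me3 peak outside the window was 806 kb away, in N. No member therefore lay close to being left out, and no other listed peak lay close to being included. Between the nearest listed peaks, the authors' numbers skip 3 H3K4me3 calls in NEC and 2 to 4 H3K27me3 calls per list. The places of these calls are unknown. The read depth behind the N list is unknown, so an enrichment under the caller's threshold would not be seen.

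All 7 NEC, 3 aRG-P, 4 aRG-N and 3 bRG peaks of H3K4me3 lay entirely within the H3K27me3 domain of the same cell type. The window was chosen with these peaks known, so nothing is read from this count. Over whole lists, H3K4me3 peaks that overlapped H3K27me3 by at least 1 bp made up 25.9% of the NEC list. The share was 8.9% for aRG-P, 14.4% for aRG-N and 8.41% for bRG. H3K4me3 covered 20.6% of the domain in NEC, and among the 411 NEC domains of at least 10 kb 90.8% had a lower share. At E14.5 it covered 1.20% in aRG-P, 3.05% in aRG-N and 1.21% in bRG, where the median over such domains was 0% in each list. A long domain without H3K4me3 was common at that stage: 72.9% of the 420 N domains of at least 10 kb had none, as did 7 of the 10 of at least 50 kb.

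Counted peak by peak, 5 of the 7 NEC peaks had no overlapping H3K4me3 peak in aRG-P, 5 had none in aRG-N, 6 had none in bRG and all 7 had none in N. The shares over all NEC peaks were 25.2% for aRG-P, 18.6% for aRG-N, 24.3% for bRG and 23.4% for N. Among NEC peaks that overlapped H3K27me3 in NEC they were 36%, 29.5%, 37.6% and 35.3%. In the other direction, every aRG-P, aRG-N and bRG peak of the window overlapped a NEC peak, and over whole lists 2.62%, 2.5% and 2.43% did not. Peaks of one group are neighbours in one domain and are not independent, and the window was chosen for this pattern, so nothing is read from these counts.

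None of the 3 aRG-P, 4 aRG-N or 3 bRG peaks had an overlapping H3K4me3 peak in N. This restates for each list that N had no listed H3K4me3 peak in the window, so nothing is read from these counts. Over whole lists 7.11% of aRG-P, 10.8% of aRG-N and 6.58% of bRG peaks had none. Among those with H3K27me3 in the same cell type the shares were 18.4%, 21.2% and 15.9%.

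The same pattern was counted over joined regions. H3K27me3 was present in all 5 lists and H3K4me3 in all 4 progenitor lists at 952 regions, and 70 of these (7.35%) had no H3K4me3 peak in N. The Zic1 and Zic4 region, chosen with its length and pattern already known, was the longest of the 70 at 76.5 kb. The median length of the 70 was 7.26 kb. The next longest lay on chromosome 3 from 128893465 to 128935352 (41.9 kb), followed by a region on chromosome 1 from 157565859 to 157602494 (36.6 kb). Of the 10 regions among the 952 that reached 50 kb, the Zic1 and Zic4 region alone lacked H3K4me3 in N. Most of the 10 lay on chromosome X. The only others on autosomes were on chromosome 6 from 52093227 to 52279132 (185.9 kb) and on chromosome 7 from 77459931 to 77524198 (64.3 kb).

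**Figure D4:**
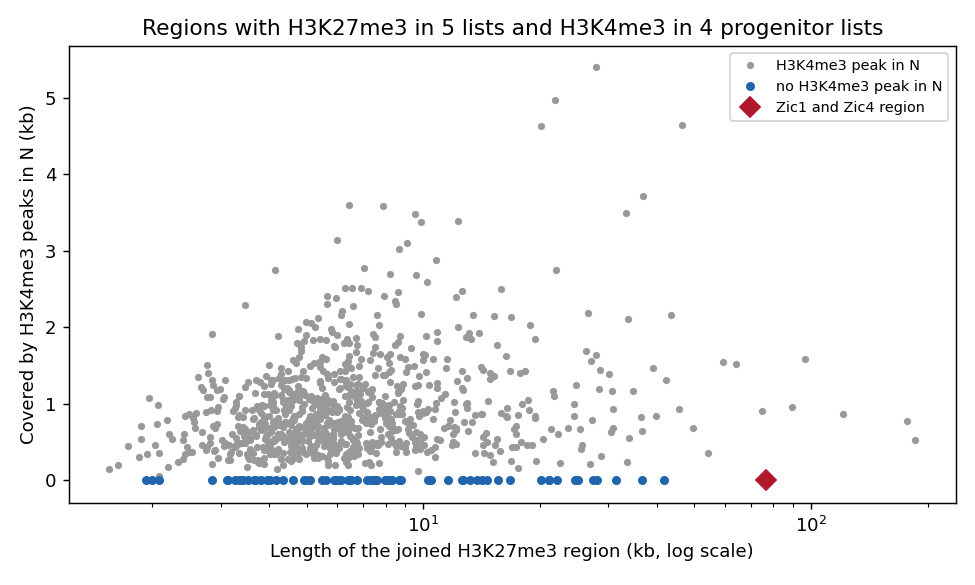
Each of the 952 joined regions with H3K27me3 in 5 lists and H3K4me3 in the 4 progenitor lists, by its length (kb, log scale) and the length covered by H3K4me3 peaks in N (kb). Grey points have an H3K4me3 peak in N, blue points have none, and the Zic1 and Zic4 region (red diamond, 76.5 kb, 0 kb) lies to the right of all blue points, the longest of which is 41.9 kb.

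The length under H3K4me3 in NEC, 13.3 kb, ranked 2 of the 952 regions, which had a median of 1.35 kb. The length in aRG-P was 6.75% of that in NEC, against a median of 50.1% over the 952 regions, and 2 regions had a lower value. In aRG-N it was 17.2% against a median of 66.5%, with 9 regions lower. In bRG it was 5.96% against 54.1%, with no region lower. These shares are divided by the NEC length, which ranked 2 of the 952. Listed peaks have a minimum width, 212 bp in bRG, so regions with little H3K4me3 in NEC can hardly reach such low shares. Nothing is read from the counts of lower regions. The lists differ in enrichment, with a median fold enrichment of 18.7 in NEC and 8.26 to 11.8 in the other lists, and the part of this in the lengths was not tested. The medians over the 952 regions come from the same lists. Broad H3K4me3 in NEC with little in N was also found elsewhere among the 952. A region on chromosome 2 from 105498580 to 105532564 had 13.7 kb in NEC and 0.551 kb in N. Another on chromosome 14 from 122859750 to 122893314 had 13.0 kb in NEC and 0.245 kb in N.

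By the lengths under both marks in the 5 lists, the region most like it among 882 candidates with both marks in every list lay on chromosome 7 from 77459931 to 77524198 (64.3 kb). Its H3K27me3 covered 35.5 kb in NEC and 64.3 kb in N, and its H3K4me3 10.9 kb in NEC and then 1.81 kb in aRG-P, 2.13 kb in aRG-N, 1.31 kb in bRG and 1.53 kb in N. The next were on chromosome 6 from 6788284 to 6834021 and on chromosome 4 from 88911287 to 88961043, with 5.50 and 2.22 kb of H3K4me3 in NEC and 0.934 and 0.688 kb in N. The Euclidean distances over 10 values of log2(1 + kb) were 1.85, 2.30 and 2.63. All 3 had more H3K4me3 in NEC than in N, and their H3K4me3 in N was a condition of the search. They were chosen by these same lengths, and less in N than in NEC was usual. Over the 952 regions the median length in N was 58.4% of that in NEC. When candidates could lack H3K4me3, a choice made after seeing the data that gave 2201 candidates, the first 2 were the same. The third was then a region on chromosome 13 from 40795208 to 40845024 at a distance of 2.40, with 7.64 kb of H3K4me3 in NEC, 0.439 kb in aRG-N and none in aRG-P, bRG or N.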

How the data were processed

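Immunoprecipitation used the LowCell kit and library preparation the MicroPlex kit, per the labels' protocols. Bowtie 1.0.0 and, without a version, MACS2 and bedtools are named for build mm9 in the submitters' processing notes. Per the peak names, each list was called on combined samples, mostly after duplicate removal. The lists are headed as peaks of all transcripts, per the file headers. The values the authors deposited for H3K4me3 are a fold enrichment (a ratio to background), −log10 p, −log10 q and a summit per peak. The values the authors deposited for H3K27me3 are treated as a score of unsettled meaning, because the last column exceeded the one before it in every peak. Read depth is unknown. The 2 Input samples were not analysed here.

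Peaks were members when they shared at least 1 bp with the window. The window, the lists compared and the settings were chosen with earlier results of these data known. H3K4me3 peaks within 5000 bp formed a group. Joined regions merged H3K27me3 peaks of all lists across up to 3000 bp, and the 3 with the smallest Euclidean distance over both marks were named. That rule asked for both marks in every list, which the Zic1 and Zic4 region itself does not meet in N. Positions are 1-based. Analyses ran in Python 3.11.15 with numpy 2.4.6, pandas 2.3.3, scipy 1.17.1 and matplotlib 3.10.9. The overlap calls were checked on simulated lists made from aRG-N (14801 H3K4me3 and 6830 H3K27me3 peaks): each of 200 deleted and 200 inserted peaks per mark was found, and no other was called.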

Additional observations from a re-analysis of the deposited data

How the results depend on the processing

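No paired analysis was possible because each list was called on combined samples, which also means that no replicate could be left out and no test could be made. Of 137 values recomputed under other settings, 118 stayed within 1.5 times the reported one. These include every number and length of the H3K27me3 domain, under wider joining, a window widened by 50 kb on each side, lists of equal length and at least 50% of a peak inside the window. The domain lay wholly inside the window, and the nearest other listed H3K27me3 peak was 806 kb from the window. Joining, widening and the 50% rule therefore could not change these values. By the first score column the domain ranked between 157 (N) and 813 (NEC), and the shortest list held 3476 peaks. A cut to equal length by that score could not remove it either, and nothing is concluded from these values staying the same. N had no H3K4me3 peak under any setting tried, but this outcome was fixed in advance. The settings could only remove or join listed peaks or widen the window by 50 kb. The nearest listed N peak of H3K4me3 was 805 kb from the window, so none of them could have added a peak. When H3K27me3 peaks were joined across up to 3000 bp, the domain ranked 16 by length in NEC and 11 in aRG-N. The length under H3K4me3 in NEC stayed within 1.5 times under every setting tried, between 9.04 and 15.7 kb. For aRG-N, the number and length moved only at the −log10 q of at least 20. With a −log10 q of at least 5, aRG-N had 3 peaks (1.71 kb), aRG-P 1 peak (0.359 kb) and bRG 1 peak (0.212 kb). With a −log10 q of at least 20, NEC had 2 peaks, and aRG-P, aRG-N and bRG had 0 peaks and 0 kb. With lists cut to equal length, NEC had 4 peaks and aRG-P 1 peak (0.359 kb). With H3K4me3 peaks joined across up to 1000 bp, which was chosen after seeing the data, NEC had 2 peaks and bRG 1 (1.296 kb). These shifts follow from what each setting removes or joins. What share of each whole list passes the −log10 q cuts was not determined, so counts at one cut are not compared between cell types. The nearest regions were the same 3 when H3K27me3 lengths alone were used. Where candidates could lack H3K4me3, also chosen after seeing the data, 2 of the 3 were the same.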
